A study of Homo sapiens with 12 samples.

Results

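The genes examined here are 10 genes of the contractile actin apparatus: ACTA2, TAGLN, TAGLN2, TAGLN3, CNN1, CNN2, CNN3, MYL9, TPM1 and TPM2. They were chosen by their symbols, and each matched 1 of the 48114 genes in the deposited tables. PolyA RNA was sequenced in 12 libraries of 2 pancreatic ductal adenocarcinoma (PDAC) cell lines, PANC-1, a line of the basal-like subtype, and HPAF-II, a line of the classical subtype. In PANC-1 cells, QKI or RBFOX2 was silenced with 40 nM siRNA for 48 h (siQKI and siRBFOX2), next to a non-targeting siRNA as control (siCtrl). HPAF-II cells received siCtrl for 48 h according to the labels, which are the only source for this condition used here. Each of the 4 groups holds 3 libraries, numbered as replicates, and since the labels do not say whether these were separate cultures, p-values measure only the spread between libraries. Each cell line stands for 1 tumor.

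Actin filaments slide along myosin II when a contractile cell shortens or pulls on its surroundings. Tropomyosins (TPM genes) run along the filament and control which proteins reach it, while calponins (CNN genes) and transgelins (TAGLN genes) bind and stabilize it. MYL9 encodes a regulatory light chain, whose phosphorylation switches myosin II on, and ACTA2 encodes the actin of smooth muscle and of myofibroblasts. Many of these genes are known targets of serum response factor (SRF) and its actin-sensing cofactors. QKI and RBFOX2 are RNA-binding proteins that control splicing, and the comparison of their knockdowns asks how far the RNA levels of this machinery follow each of them.

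Values are normalized counts, the deposited gene counts after division by the authors' size factor of each library. QKI stood at 24539, 25909 and 26150 normalized counts in the siCtrl libraries and at 4630, 5020 and 5453 in the siQKI libraries, a log2 fold change of -2.34 (limma adjusted p = 9.15e-13). RBFOX2 stood at 15355, 15424 and 15508 in siCtrl and at 1712, 2171 and 2403 in siRBFOX2 libraries (log2 fold change -2.89, limma adjusted p = 4.70e-11). RBFOX2 also fell in siQKI cells, by 0.29 on the log2 scale (limma adjusted p = 0.0207). After every library was rescaled to a total of 1000000, 4 mesenchymal markers summed to 5376 to 5567 rescaled counts in siCtrl libraries of PANC-1. This sum was 5138 to 5293 in siQKI, 5492 to 5542 in siRBFOX2 and 1.21 to 16.4 in HPAF-II libraries, where CDH2 was at 0. In siQKI 3 of the 4 were called, 2 lower and 1 higher, against 33.0% of all genes tested. In siRBFOX2 1 was called, higher, against 26.5%. The 6 epithelial markers summed to 2547 to 2640 in siCtrl, 2556 to 2713 in siQKI, 2130 to 2287 in siRBFOX2 and 10342 to 10732 in HPAF-II libraries. In PANC-1, keratins made up most of this sum and VIM most of the mesenchymal one, so the sums do not show single genes. CDH1 had a mean of 2.87 rescaled counts in siCtrl, 7.91 in siQKI and 4.33 in siRBFOX2 libraries. Of the 6 epithelial markers, 2 were called in siQKI, 1 higher and 1 lower, against 33.0% of all genes tested. In siRBFOX2 4 of the 6 were called, 1 higher and 3 lower, against 26.5% of all genes. Between siQKI and siRBFOX2 4 were called, all higher in siQKI, against 21.5%. The 6 smooth muscle markers summed to at most 1.34 rescaled counts in any library, and MYOCD, the muscle-specific cofactor of SRF, was at 0 in every siCtrl and siQKI library. The 9 fibroblast markers summed to 27.5 to 35.8 rescaled counts in siCtrl, 41.9 to 47.8 in siQKI, 34.2 to 41.5 in siRBFOX2 and 19.3 to 23.6 in HPAF-II libraries. In PANC-1, DCN was at 0 in all libraries, and COL1A1 and THY1 made up most of the sum. COL1A1 had a mean of 11.9 rescaled counts in siCtrl and 24.6 in siQKI libraries, and THY1 17.9 and 17.1. The part of these sums in the results below was not tested. In bulk RNA, fewer cells of a type and less RNA per cell cannot be told apart.

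The 10 genes covered a wide range of levels in PANC-1 siCtrl cells. Per kb of transcript, TAGLN2 was the highest, at 633 ± 13.8 rescaled counts per kb (SD, n = 3), followed by TPM2 at 431 ± 26.0 and TPM1 at 327 ± 20.0. CNN2 stood at 82.3 ± 1.96, MYL9 at 25.1 ± 3.52 and CNN3 at 19.1 ± 0.303 rescaled counts per kb. Lower still were TAGLN at 3.74 ± 0.769, CNN1 at 0.746 ± 0.0825 and ACTA2 at 0.311 ± 0.166 rescaled counts per kb. TAGLN3, a form known from neurons, was the lowest at 0.277 ± 0.125. In this order the libraries of neighboring genes overlapped only for ACTA2 and TAGLN3. Measured over all annotated exons instead of the median coding transcript, TPM1 and CNN2 changed places, and so did ACTA2 and TAGLN3.

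QKI knockdown lowered CNN2 to 36.4% of its control level, a call that held when any single library was left out. RBFOX2 knockdown raised MYL9 by 1.55-fold and CNN2 by 1.13-fold. The abundant tropomyosin genes TPM1 and TPM2 were not called. All 10 genes passed the filter on low values, a mean of at least 10 normalized counts over the PANC-1 libraries. Of them, 5 passed the threshold of 0.05 in siQKI cells, against 33.0% of the 22544 genes tested. In the upward direction 2 passed, against 14.9% of all genes, and in the downward direction 3, against 18.1%. In siRBFOX2 cells 3 of 10 passed, against 26.5% of all genes, with 2 upward against 12.0% and 1 downward against 14.5%. The libraries of siQKI and siCtrl did not overlap for 6 of the 10 genes, against 44.7% of all genes, and those of siRBFOX2 and siCtrl for 3, against 37.9%. With 10 genes these shares are close to those of all genes, so the counts are no result about the group. The 5 calls in siQKI fell to 1 without siCtrl replicate 2 or siQKI replicate 3, to 2 without siQKI replicate 1 and to 3 without siCtrl replicate 3 or siQKI replicate 2. The median log2 fold change of the 10 genes was 0.07 in siQKI and 0.06 in siRBFOX2 cells, and that of all tested genes was 0.03 and 0.01.

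**Figure D1:**
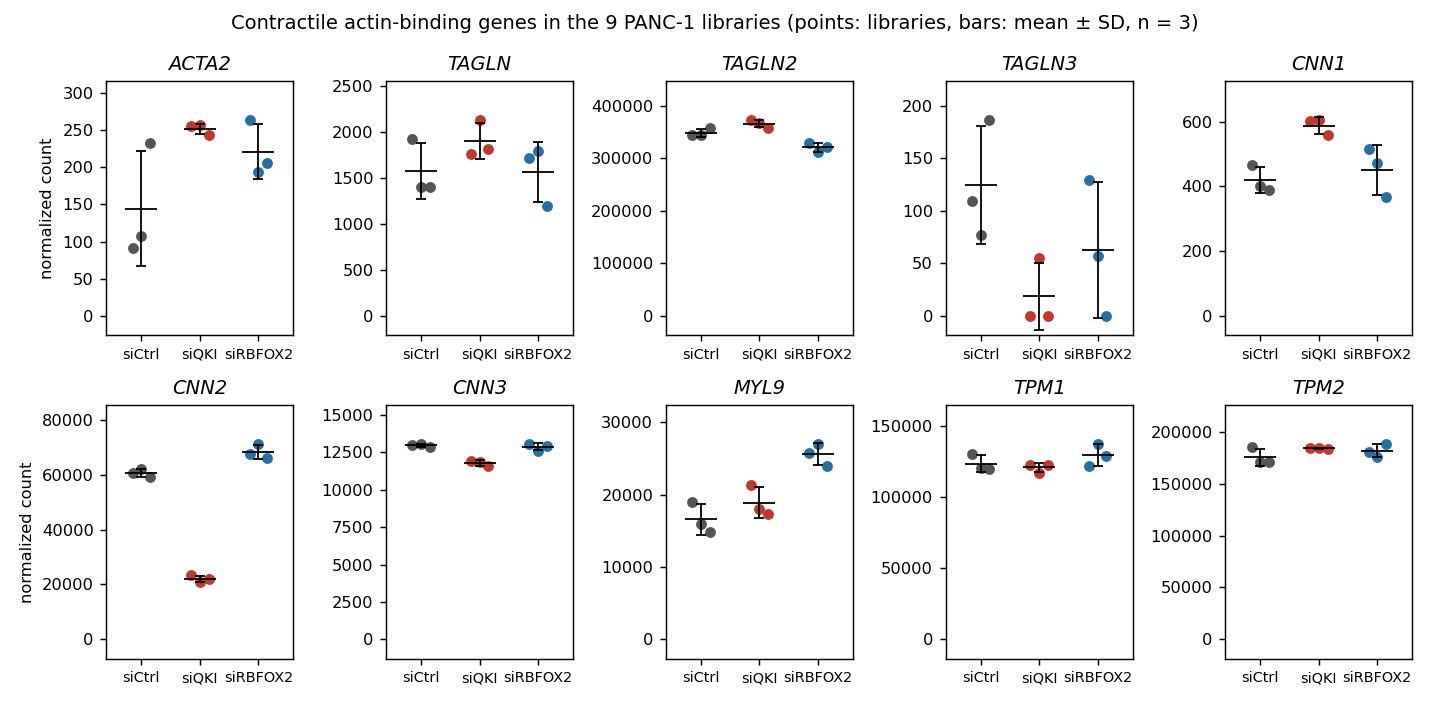
Normalized counts of the 10 genes in the 9 PANC-1 libraries, with a linear axis for each gene, points for the libraries and bars for the mean ± SD of 3 libraries. The siQKI libraries of CNN2 lie at 21054 to 23283, far below the siCtrl libraries at 59222 to 62276, and the siRBFOX2 libraries of MYL9 lie above those of the other groups.

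In siQKI cells CNN2 fell strongly, CNN3 fell slightly and CNN1 rose. CNN2 (chr19:1026584-1046151, plus strand, hg38), the calponin made in many non-muscle cells, had 60565, 62276 and 59222 normalized counts in the siCtrl libraries, 23283, 21054 and 21975 in the siQKI libraries and 67702, 71289 and 66297 in the siRBFOX2 libraries. Every siQKI library was below and every siRBFOX2 library was above every siCtrl library. The log2 fold change in siQKI was -1.46 (SE 0.04, 95% interval -1.55 to -1.36, limma adjusted p = 1.01e-11). In siRBFOX2 it was 0.17 (SE 0.04, 95% interval 0.08 to 0.27, limma adjusted p = 0.00871), which was no longer past the threshold without a trend of the variance over the mean (adjusted p = 0.0695). The annotated end of CNN2 overlaps its neighbor ABCA7, a lipid transporter gene, by 6045 bases. ABCA7 had 3614 to 3985 normalized counts in siCtrl and 3885 to 4696 in siQKI libraries and was not called (log2 fold change 0.17, limma adjusted p = 0.117).

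CNN1 (chr19:11538764-11550324, plus strand), the calponin of differentiated smooth muscle, was low but rose in siQKI cells. It had 465, 402 and 389 normalized counts in siCtrl, 601, 604 and 558 in siQKI and 515, 473 and 366 in siRBFOX2 libraries. The siQKI libraries were all above the siCtrl libraries, whereas the siRBFOX2 libraries overlapped them. The log2 fold change in siQKI was 0.49 (SE 0.17, limma adjusted p = 0.0359), and it was between 0.44 and 0.53 with adjusted p-values of 0.0614 to 0.106 when siCtrl replicate 2 or 3 or any siQKI replicate was left out. In siRBFOX2 it was 0.10 (95% interval -0.26 to 0.46, limma adjusted p = 0.738).

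CNN3 (chr1:94896957-94927143, minus strand), an acidic calponin of non-muscle cells, fell slightly in siQKI cells. It had 13009, 13079 and 12856 normalized counts in siCtrl, 11922, 11871 and 11598 in siQKI and 13064, 12628 and 12955 in siRBFOX2 libraries. The siQKI libraries were all below the siCtrl libraries, by a log2 fold change of -0.14 (SE 0.04, limma adjusted p = 0.0180). The call was lost after rescaling to the upper quartile (-0.08, adjusted p = 0.180) and without siCtrl replicate 2 or siQKI replicate 3 (adjusted p = 0.0561 and 0.0711). In siRBFOX2 the log2 fold change was -0.01 (95% interval -0.10 to 0.08). The divergent transcript CNN3-DT, which overlaps CNN3, rose in siQKI cells (log2 fold change 0.59, limma adjusted p = 0.0321).

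The make-up of the calponin pool differed between the groups. CNN2 made up 80.6% ± 0.277 (SD, n = 3) of the summed calponin level per kb in siCtrl, 61.9% ± 1.18 in siQKI and 82.4% ± 0.726 in siRBFOX2 cells. The summed level itself was 102 ± 2.24, 50.5 ± 1.24 and 117 ± 6.10 rescaled counts per kb. CNN3 made up 18.7% of the pool in siCtrl and 35.9% in siQKI cells, and CNN1 0.730% and 2.16%. These are descriptions, with no test of their own.

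**Figure D2:**
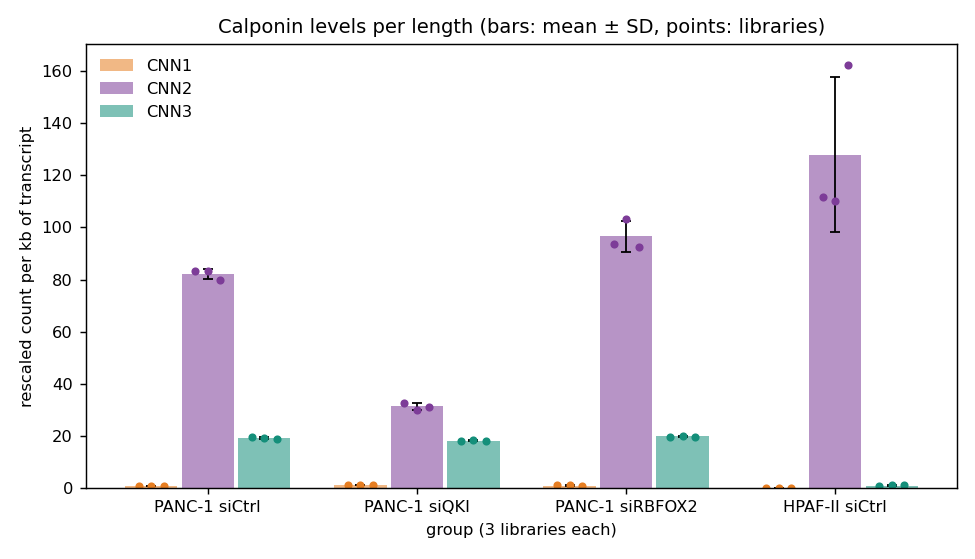
Level of each calponin gene in rescaled counts per kb of transcript in the 4 groups, with bars for the mean ± SD and points for the 3 libraries of each group. CNN2 stands at 82.3 rescaled counts per kb in PANC-1 siCtrl, 31.2 in siQKI, 96.5 in siRBFOX2 and 128 in HPAF-II siCtrl cells, and CNN3 at 19.1 in PANC-1 siCtrl and 0.825 in HPAF-II cells.

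The promoters of the calponin genes are shown because these paralogs moved in different directions. RefSeq lists 300 bases around a start site (250 before, 50 after, GRCh38.p14) for 8 of the 10 genes, in 14 entries, with none for TAGLN and MYL9. They were searched on both strands for the CArG box, the 10-base element that SRF binds, for GGGCGG, a GC box bound by Sp1, and for TATAAA. Only exact CArG boxes were counted, with nothing but A or T between CC and GG. Capitals mark CArG boxes and GC boxes, on the strand of the gene, of which CNN2 and CNN1 lie at chr19:1026358-1026657 and chr19:11538601-11538900 on the plus strand and CNN3 (the entry with more CpG) at chr1:94927061-94927360 on the minus strand.
CNN2: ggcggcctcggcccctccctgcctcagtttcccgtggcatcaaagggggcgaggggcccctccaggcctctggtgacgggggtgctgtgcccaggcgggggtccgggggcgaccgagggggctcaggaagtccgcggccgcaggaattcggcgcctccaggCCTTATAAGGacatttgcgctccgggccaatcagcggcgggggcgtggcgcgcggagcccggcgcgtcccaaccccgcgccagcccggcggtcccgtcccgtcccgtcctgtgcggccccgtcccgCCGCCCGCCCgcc
CNN1: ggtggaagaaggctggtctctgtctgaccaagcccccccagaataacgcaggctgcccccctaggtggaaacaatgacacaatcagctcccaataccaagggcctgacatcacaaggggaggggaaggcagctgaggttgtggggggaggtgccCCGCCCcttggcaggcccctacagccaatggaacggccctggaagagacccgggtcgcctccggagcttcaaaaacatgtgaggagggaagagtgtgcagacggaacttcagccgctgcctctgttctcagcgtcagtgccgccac
CNN3: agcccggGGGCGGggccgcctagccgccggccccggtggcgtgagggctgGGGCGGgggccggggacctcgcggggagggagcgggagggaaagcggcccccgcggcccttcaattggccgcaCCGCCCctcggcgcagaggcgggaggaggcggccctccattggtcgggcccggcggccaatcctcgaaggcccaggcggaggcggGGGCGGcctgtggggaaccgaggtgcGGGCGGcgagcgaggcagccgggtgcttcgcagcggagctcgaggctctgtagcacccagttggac
CNN2 held the only exact CArG box among the 14 entries, starting 89 bases before the start site, and 1.29% of all 35116 promoters held one. CArG boxes of another form, or outside these 300 bases, would be missed, so the other genes may still have one. GC boxes numbered 2 in the CNN2 window, 1 in that of CNN1 and 5 in that of CNN3, and 45.0% of all promoters held at least 1. No entry of the 10 genes held TATAAA, which 11.5% of all promoters held. CpG dinucleotides numbered 38 in the CNN2 window, 37 in that of CNN3 and 10 in that of CNN1, and the median of all promoters was 14. SRF itself fell in both knockdowns (values below), while CNN2 fell in siQKI and rose in siRBFOX2 cells. A link between SRF, this element and the level of CNN2 was not tested.

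The 6-base elements of both RNA-binding proteins were also searched in the transcripts, taking for each gene the longest coding transcript that GENCODE v29 marks as principal. ACTAAC, an element that QKI binds, was in none of the 10 transcripts and in 23.6% of those of 19619 genes, whose median length was 2.73 kb against 1.62 kb for the 10. TGCATG, the RBFOX element, was in 2 of the 10 transcripts and in 50.3% of all. These sites are shown, with the element in capitals, because MYL9 was the gene of this group that rose most clearly with RBFOX2 knockdown.
MYL9, 3′ UTR in exon 4, chr20:36551369-36551374, plus strand: ggcagatttaaaTGCATGaagtcaacattc
CNN1, 3′ UTR in exon 7, chr19:11549884-11549889, plus strand: accccctctcccTGCATGgcatcctccagc
CNN1, 3′ UTR in exon 7, chr19:11550181-11550186, plus strand: gtgggagcaaacTGCATGcccagagaccca
A match of 6 letters is a description and not a binding site, and introns were not searched. CNN1, which also holds the element, had a log2 fold change of 0.10 in siRBFOX2 cells (limma adjusted p = 0.738). A link between these sites and the level of MYL9 or CNN1 was not tested.

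MYL9 (chr20:36541516-36551447, plus strand) rose in siRBFOX2 cells. It had 18917, 15941 and 14824 normalized counts in siCtrl, 21277, 17971 and 17318 in siQKI and 25789, 27003 and 23913 in siRBFOX2 libraries. All siRBFOX2 libraries were above all siCtrl and siQKI libraries, whereas siCtrl and siQKI overlapped. The log2 fold change in siRBFOX2 was 0.63 (SE 0.09, 95% interval 0.45 to 0.81, limma adjusted p = 6.47e-05). In siQKI it was 0.19 (95% interval 0.01 to 0.37, limma adjusted p = 0.109), with 0.29 and an adjusted p of 0.0122 when siCtrl replicate 1 was left out and 0.25 and 0.0402 after rescaling to the upper quartile. DLGAP4-AS1, which overlaps all of MYL9, had at most 157 normalized counts in any PANC-1 library.

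ACTA2 (chr10:88935074-88991397, minus strand) was low throughout. It had 91.9, 108 and 233 normalized counts in siCtrl, 255, 257 and 244 in siQKI and 264, 194 and 207 in siRBFOX2 libraries. The siCtrl libraries were spread more widely than those of either knockdown, with siCtrl replicate 3 far above the others. All siQKI libraries were above them, with a log2 fold change of 0.93 (SE 0.32, limma adjusted p = 0.0375), and the call was lost when siCtrl replicate 1 or 2 or any siQKI replicate was left out (adjusted p = 0.0769 to 0.151). In siRBFOX2 the log2 fold change was 0.72 (95% interval 0.04 to 1.41, limma adjusted p = 0.117), and without siCtrl replicate 3 it was 1.13 (adjusted p = 0.0104). Its antisense partner ACTA2-AS1 rose in siQKI cells as well, from 36.0 to 54.6 normalized counts in siCtrl to 97.5 to 133 in siQKI libraries (log2 fold change 1.28, limma adjusted p = 0.0225), and reads of the pair cannot be told apart where strand was not counted. STAMBPL1 and FAS also overlap ACTA2, and FAS fell in siQKI cells (log2 fold change -0.64, limma adjusted p = 0.0295). ACTA2 is a paralog of the far more abundant ACTB, which fell in siQKI cells, and how reads that match several genes were counted is not given in the sources used here.

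TAGLN2 made up 99.4% of the transgelin level per kb in PANC-1 siCtrl cells, and its changes were small. TAGLN2 (chr1:159918111-159925507, minus strand), the transgelin of epithelial and blood cells, had 343908, 345515 and 357922 normalized counts in siCtrl, 373245, 367864 and 358998 in siQKI and 330228, 311987 and 321152 in siRBFOX2 libraries. The siQKI libraries were above and the siRBFOX2 libraries were below all siCtrl libraries. The log2 fold change in siRBFOX2 was -0.12 (SE 0.04, limma adjusted p = 0.0229), and the call was lost without siCtrl replicate 3 or siRBFOX2 replicate 2 (adjusted p = 0.0944 and 0.0692) and after rescaling to the upper quartile (-0.09, adjusted p = 0.0667). In siQKI it was 0.07 (95% interval -0.01 to 0.15, limma adjusted p = 0.160), and 0.13 with an adjusted p of 0.00650 after that rescaling.

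TAGLN (chr11:117199294-117210292, plus strand), also known as SM22 alpha and an early marker of smooth muscle, passed the test in neither knockdown. It had 1924, 1400 and 1405 normalized counts in siCtrl, 1763, 2131 and 1819 in siQKI and 1721, 1790 and 1192 in siRBFOX2 libraries, so both knockdowns overlapped the control. The log2 fold change was 0.28 in siQKI (95% interval -0.05 to 0.61, limma adjusted p = 0.187) and -0.01 in siRBFOX2 (95% interval -0.34 to 0.32, limma adjusted p = 0.963). Without siCtrl replicate 1 the siQKI value was 0.44 (adjusted p = 0.0470). PCSK7, which overlaps TAGLN, fell in both knockdowns, with log2 fold changes of -0.26 and -0.23 (limma adjusted p = 0.00550 and 0.0146).

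TAGLN3 (chr3:111998795-112013885, plus strand) was close to the limit of detection. It had 109, 77 and 186 normalized counts in siCtrl, 0, 54.9 and 0 in siQKI and 129, 57.1 and 0 in siRBFOX2 libraries. The siQKI libraries were all below the siCtrl libraries, and the test passed (limma adjusted p = 0.0342), but the fitted log2 fold change of -4.94 rests on the pseudocount and ran from -7.15 to -2.76 over the alternatives. The call was lost when any 1 of the 3 siCtrl libraries, or siQKI replicate 1 or 3, was left out (adjusted p = 0.0612 to 0.122).

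TPM1 and TPM2 passed the test in neither knockdown. TPM1 (chr15:63042684-63071915, plus strand) had 130325, 120805 and 119514 normalized counts in siCtrl, 122947, 117203 and 123007 in siQKI and 122014, 137589 and 129313 in siRBFOX2 libraries. All 3 groups overlapped. The log2 fold change was -0.03 in siQKI (95% interval -0.13 to 0.07, limma adjusted p = 0.700) and 0.07 in siRBFOX2 (95% interval -0.03 to 0.17, limma adjusted p = 0.331). TPM2 (chr9:35681993-35692472, minus strand) had 184907, 170637 and 170930 normalized counts in siCtrl, 184215, 184011 and 183764 in siQKI and 180710, 176169 and 188403 in siRBFOX2 libraries. Its log2 fold change was 0.07 in siQKI (95% interval -0.02 to 0.15, limma adjusted p = 0.213) and 0.05 in siRBFOX2 (95% interval -0.03 to 0.14, limma adjusted p = 0.399), and after rescaling to the upper quartile the siQKI value was 0.13 (adjusted p = 0.0211). With all libraries and the deposited normalization, these intervals leave out a change of TPM1 or TPM2 by more than 0.17 on the log2 scale. This holds for the sum over all isoforms of a gene. Over the alternatives the value reached 0.13 for TPM2 in siQKI and 0.11 for TPM1 in siRBFOX2, and intervals are not given for these. Tropomyosin isoforms arise by splicing and different start sites, which gene counts do not separate. Of the summed tropomyosin level per kb, TPM1 and TPM2 made up 18.2% and 24.0% in siCtrl, 19.4% and 27.4% in siQKI and 20.3% and 26.4% in siRBFOX2 cells, and TPM3 was the most abundant tropomyosin in all 3 groups, at 53.7%, 49.8% and 48.6%. These shares depend on the length used, and over all annotated exons TPM1 and TPM2 made up 6.80% and 38.3% in siCtrl and 7.17% and 43.2% in siQKI cells.

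**Figure D3:**
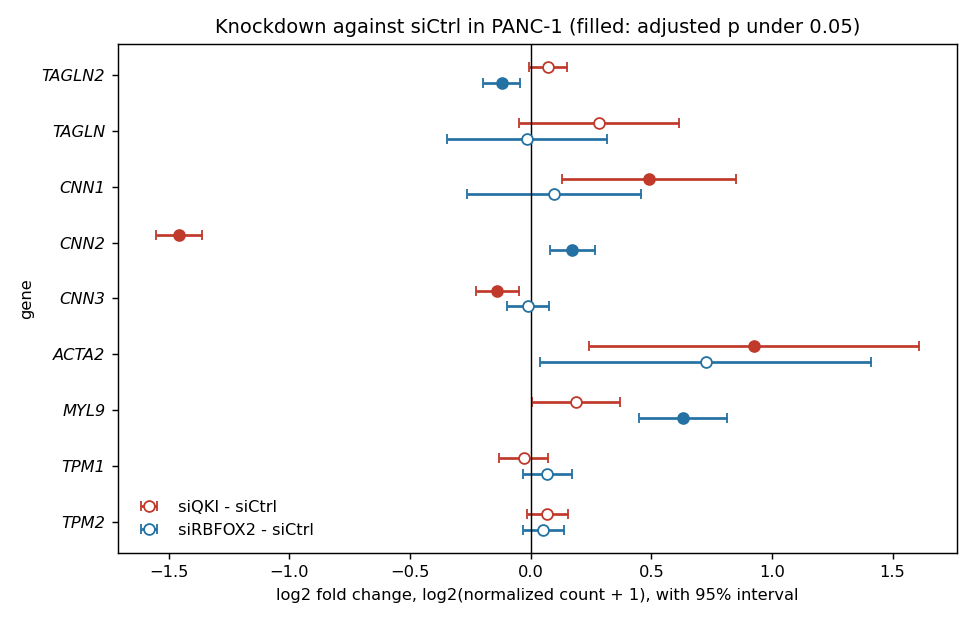
Log2 fold change of 9 of the genes in siQKI and siRBFOX2 against siCtrl PANC-1 cells, with 95% intervals from limma and filled points where the adjusted p is under 0.05. CNN2 in siQKI, at -1.46, lies apart from every other value, and MYL9 in siRBFOX2 is at 0.63. TAGLN3 is left out because its fitted value rests on the pseudocount.

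The knockdowns were also compared with each other, which does not use the control libraries as a reference. In siQKI against siRBFOX2, 4 of the 10 genes passed the threshold, 1 higher and 3 lower, against 21.5% of all genes in either direction, 9.93% higher and 11.6% lower. CNN2 differed by -1.63 (SE 0.04, limma adjusted p = 3.99e-12) and MYL9 by -0.44 (SE 0.09, limma adjusted p = 0.00147), both lower in siQKI. TAGLN2 differed by 0.19 (SE 0.04, limma adjusted p = 0.00132), higher in siQKI. These 3 calls held in all 17 alternatives computed. The call of CNN3, a difference of -0.13 (limma adjusted p = 0.0402), held in 5 of 17. ACTA2 differed by 0.20 (95% interval -0.48 to 0.89) and CNN1 by 0.39 (95% interval 0.03 to 0.75, limma adjusted p = 0.119), so a difference between the knockdowns was not shown for them. TAGLN3 was called only without siRBFOX2 replicate 3 (adjusted p = 0.0363).

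Other genes of the actin and myosin II machinery, given by 6 lists with 47 genes outside the group, were called mostly downward. These lists were chosen with earlier results of these data known, so their counts are descriptions and no independent evidence. ACTG2 and MYOCD did not pass the filter on low values. In siQKI cells 29 of the 45 genes tested passed, 22 lower and 7 higher, where 33.0% of all genes were called, 18.1% lower and 14.9% higher. The median log2 fold change was -0.13, against 0.03 over all genes. In siRBFOX2 cells 22 of 45 passed, 17 lower and 5 higher, where 26.5% of all genes were called, 14.5% lower and 12.0% higher. The median was -0.08, against 0.01 over all genes. Both comparisons share the siCtrl libraries, and the same shares of all genes apply to the counts of each list below. Smaller changes pass the threshold in abundant genes (SE 0.05 for ACTB) than in low ones (SE 1.26 for ACTA1). The lists and all genes were not matched for abundance.

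In the SRF list, which holds the factor, its cofactors and known targets, 7 of 8 tested genes passed in siQKI, 5 lower and 2 higher. SRF fell by 0.88 on the log2 scale (limma adjusted p = 6.00e-09), from 15642 to 16193 normalized counts in siCtrl to 8213 to 9010 in siQKI libraries. ANKRD1, a target gene induced by stretch, fell by 0.66 (limma adjusted p = 0.000427), while the cofactor gene MRTFB rose by 0.71 (limma adjusted p = 7.86e-08). In siRBFOX2, 4 of 8 passed, 3 lower and 1 higher. The matricellular genes CCN2 and CCN1 fell by 0.90 and 0.50 (limma adjusted p = 2.80e-08 and 2.41e-06), and MRTFB rose by 0.48 (limma adjusted p = 6.65e-06). SRF fell there as well, by 0.40 (limma adjusted p = 3.36e-05).

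Among crosslinkers and adhesion linkers, 8 of 10 passed in siQKI, 6 lower and 2 higher, and 6 of 10 in siRBFOX2, 4 lower and 2 higher. CALD1, encoding caldesmon, which like calponin restrains actin-activated myosin, rose in both, from 503 to 528 normalized counts in siCtrl to 654 to 788 in siQKI (log2 fold change 0.52, limma adjusted p = 0.00464) and 984 to 1053 in siRBFOX2 libraries (log2 fold change 1.002, limma adjusted p = 3.21e-05). The crosslinker ACTN4 and the adhesion protein ZYX fell in siQKI by 0.48 and 0.42 (limma adjusted p = 1.55e-07 and 5.73e-07). SMTN and ACTN1 fell in siRBFOX2 by 0.22 and 0.17 (limma adjusted p = 0.00267 and 0.00271).

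Of the genes that regulate the myosin light chain, 5 of 9 passed in siQKI, 4 lower and 1 higher, and 4 of 9 in siRBFOX2, 3 lower and 1 higher. MYLK, the myosin light chain kinase gene, fell in siQKI by 0.53 (limma adjusted p = 5.37e-07) and was not called in siRBFOX2, where its value was 0.10 (limma adjusted p = 0.143). PPP1R12A, the targeting subunit of myosin phosphatase, rose in siQKI by 0.24 (limma adjusted p = 0.00454), RHOB fell in siRBFOX2 by 0.72 (limma adjusted p = 1.68e-06) and the kinase gene DAPK3 fell there by 0.21 (limma adjusted p = 0.00763).

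In the myosin II list 4 of 8 genes passed in each knockdown, 3 lower and 1 higher in siQKI and 4 lower in siRBFOX2. MYL12A, MYH9 and MYL12B fell in siQKI by 0.26, 0.21 and 0.20 (limma adjusted p = 7.05e-05, 0.000151 and 0.00386). MYL12B, MYH10 and MYH9 fell in siRBFOX2 by 0.24, 0.23 and 0.14 (limma adjusted p = 0.00154, 0.000784 and 0.00516). MYL12A and MYL12B, close relatives of MYL9, thus fell in siRBFOX2 cells (MYL12A by 0.11, limma adjusted p = 0.0488) where MYL9 rose.

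Of the other tropomyosins and pointed-end caps, 4 of 6 passed in siQKI, 3 lower and 1 higher, and 3 of 6 in siRBFOX2, 2 lower and 1 higher. TPM4 and the cap gene TMOD3 fell in siQKI by 0.45 and 0.27 (limma adjusted p = 5.27e-07 and 0.000514). TPM3 and TMOD3 fell in siRBFOX2 by 0.23 and 0.14 (limma adjusted p = 0.000535 and 0.0495). TMOD1, at 43.1 to 92.9 normalized counts in siCtrl, rose in siQKI by 1.12 and in siRBFOX2 by 1.56 (limma adjusted p = 0.0206 and 0.00341). Among the other actins, ACTB fell in siQKI by 0.26 (limma adjusted p = 0.000660) and ACTG1 in siRBFOX2 by 0.29 (limma adjusted p = 0.000325), 1 of 4 tested genes in each.

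**Figure D4:**
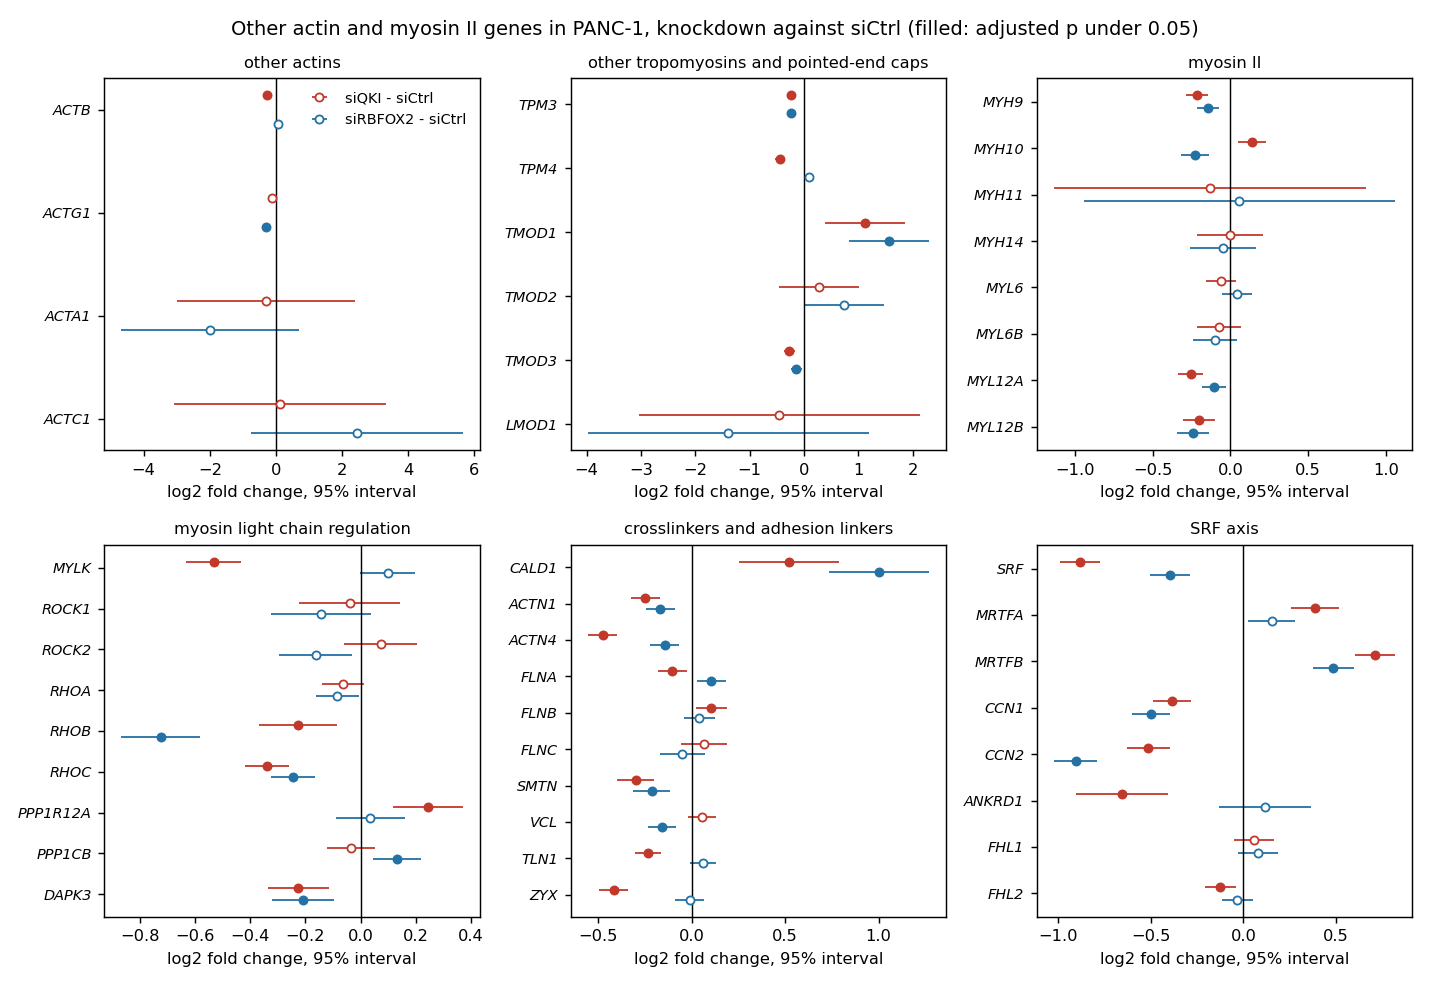
Log2 fold change of the 45 tested genes of the 6 lists in siQKI and siRBFOX2 against siCtrl PANC-1 cells, with 95% intervals and filled points where the limma adjusted p is under 0.05; each panel has its own axis. Most filled points lie below 0, with CALD1, TMOD1 and MRTFB above it in both knockdowns.

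CNN1, TAGLN3, CNN3 and MYL9 were far lower in HPAF-II than in PANC-1 siCtrl cells, and ACTA2 and CNN2 were higher. The authors normalized the lines apart, so no test was made, and values are given in counts rescaled to a library total of 1000000. At least 2-fold apart were 5 of the 10 genes, 1 higher in HPAF-II, against 26.1% of the 24673 genes compared, and 4 lower, against 27.1%. These shares are close to those of all genes, so the count is no result about the group. It was 8 on the deposited values without rescaling and 3 with a pseudocount of 1. The median log2 difference, HPAF-II minus PANC-1, was -0.87 over the 10 genes and 0.02 over all genes.

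CNN1 and TAGLN3 were all but absent from HPAF-II. CNN1 was listed at 0 in 2 HPAF-II libraries and at 0.00323 rescaled counts in the third, against 1.13 to 1.37 in PANC-1 siCtrl libraries. TAGLN3 was listed at 0 in the same 2 libraries and at 0.00969 in the third, against 0.221 to 0.539, so no fold is given for either. CNN3 had 1.19, 1.91 and 1.79 rescaled counts in HPAF-II against 38.4, 37.6 and 37.2 in PANC-1, a mean 23.2-fold lower. MYL9 had 3.42, 2.15 and 2.94 against 55.8, 45.8 and 42.9, a mean 17.0-fold lower. No library of one line reached the range of the other for these 4 genes.

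TPM1, TPM2, TAGLN and TAGLN2 differed less. TPM1 had 200, 222 and 130 rescaled counts in HPAF-II against 385, 347 and 346 in PANC-1, a mean 1.95-fold lower and just short of the 2-fold threshold, and TPM2 had 305, 337 and 279 against 546, 490 and 495. TAGLN had 2.82, 1.99 and 3.57 against 5.68, 4.02 and 4.07. These 3 genes were lower in every HPAF-II library than in every PANC-1 siCtrl library. TAGLN2 overlapped, at 734 to 1124 against 992 to 1037 rescaled counts.

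CNN2 and ACTA2 were higher in HPAF-II. CNN2 had 239, 236 and 348 rescaled counts against 179, 179 and 172, a mean 1.56-fold higher, and made up 99.3% of the calponin level per kb. ACTA2 had 1.01, 0.754 and 1.52 against 0.271, 0.310 and 0.676, a mean 2.61-fold higher, although it stayed among the lowest of the genes detected. Genes that overlap ACTA2 differed as well, in normalized counts without rescaling. FAS had 1772 to 2630 in HPAF-II against 488 to 633 in PANC-1 siCtrl libraries, and STAMBPL1 2367 to 3336 against 1699 to 2080. ACTA2-AS1 overlapped, at 25.9 to 113 against 36.0 to 54.6. The part of their reads in the ACTA2 values was not tested. QKI itself was lower in HPAF-II, at 11.3 to 16.5 rescaled counts, a range that the siQKI libraries of PANC-1 shared at 13.9 to 16.6. At these like levels of QKI, CNN2 was at 236 to 348 rescaled counts in HPAF-II and at 64.2 to 69.9 in siQKI libraries. CNN3 was at 1.19 to 1.91 and at 35.3 to 36.2, and MYL9 at 2.15 to 3.42 and at 52.8 to 63.8. TPM1, TPM2, TAGLN and CNN1 were also lower in every HPAF-II library than in every siQKI library. ACTA2 overlapped, at 0.754 to 1.52 and at 0.744 to 0.784, as did TAGLN2, at 734 to 1124 and at 1094 to 1121, and TAGLN3. The part of QKI in the differences between the lines was not tested.

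**Figure D5:**
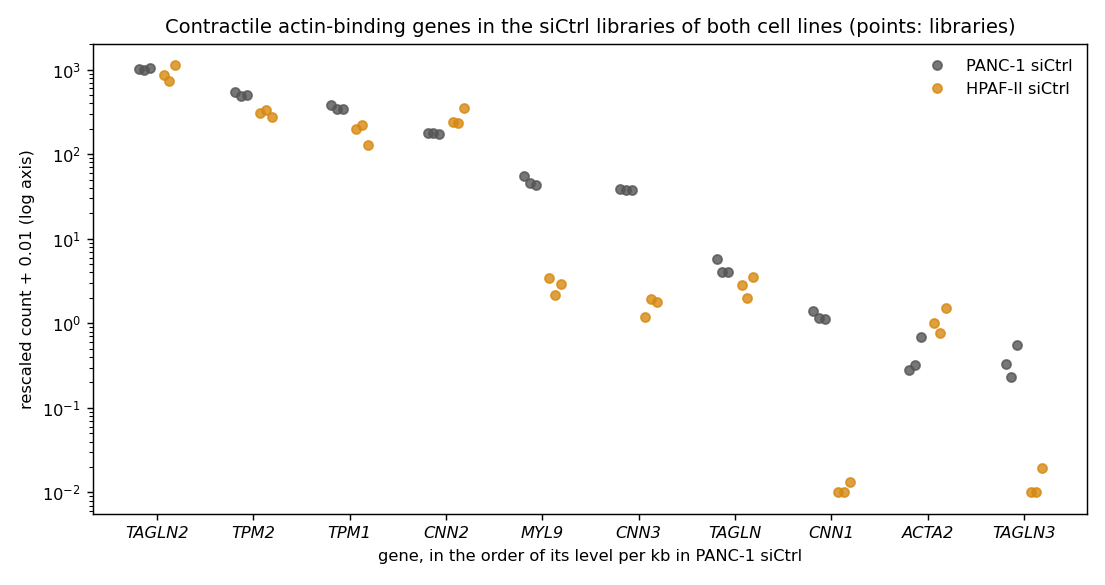
Rescaled counts plus 0.01 of the 10 genes in the 3 siCtrl libraries of PANC-1 and of HPAF-II, on a log axis, with a point for each library and genes in the order of their level per kb in PANC-1. MYL9, CNN3, CNN1 and TAGLN3 are far lower in HPAF-II, CNN2 and ACTA2 are higher, and TAGLN2 overlaps.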

How the data were processed

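RNA of 12 libraries (RNeasy, DNase, Universal Plus mRNA-Seq kit, 150 bp paired-end reads) was aligned by the authors with STAR 2.7.5a to hg38, per the submitters' processing notes, and counted over FAST DB genes. The signal values the authors deposited are gene counts divided by DESeq2 size factors, in a table for PANC-1 and another for HPAF-II. Every value was a whole multiple of a library's smallest value (within 0.01), with library totals of 292248837 to 376192091 units for PANC-1 and of 226697015 to 309720537 for HPAF-II. Of the low values 82.1% to 84.8% were multiples of 3, so these units are not reads, the depth is unknown and precision was taken from the replicates. Strand and multimapping rules are not given in the sources used here.

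The test was limma 3.58.1 (R 4.3.3) applied to log2(normalized count + 1) and moderated with a trend of the variance over the mean, in 1 fit of the 9 PANC-1 libraries, for all genes whose mean reached 10, with Benjamini-Hochberg adjustment over 22544 genes and a threshold of 0.05. Fold changes are differences of mean log2 values on this scale, and those of low genes depend on the pseudocount. P-values measure the spread between these libraries. The script was tested on simulated data. Levels per kb used the median length of coding GENCODE v29 transcripts. Cell lines were compared without a test, as log2(rescaled count + 0.01), for genes whose mean reached 10 in either line. Named were the 10 genes, QKI and RBFOX2, and from each list and knockdown up to 3 called genes of largest fold change. The values of 1 such gene are not reported here. Overlapping genes, and SRF, MYLK and MYL12A in siRBFOX2, were added after their values were seen. The genes and lists were chosen with earlier results of these data known.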

Additional observations from a re-analysis of the deposited data

How the results depend on the processing

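The log2 fold changes of the 10 genes in the 3 PANC-1 comparisons were recomputed under 17 alternatives each, of which 452 results kept their direction and their side of the threshold, 41 lost the call, 8 gained one and 9 reversed. CNN2 in siQKI and MYL9 in siRBFOX2 held throughout. Without the mean-variance trend, 3 genes were called in siQKI and 1 in siRBFOX2. Leaving out 1 library at a time gave 1 to 5 calls in siQKI (1 without siCtrl replicate 2 or siQKI replicate 3), 2 to 3 in siRBFOX2, 3 to 4 in siQKI against siRBFOX2, 23 to 30 and 18 to 22 for the actin and myosin II lists in siQKI and siRBFOX2, and 5 to 6 genes 2-fold apart between the lines. Between the lines, 8 genes were 2-fold apart on the deposited values without rescaling and 3 with a pseudocount of 1. The reversed values were near 0 and not called. With upper quartile rescaling, the log2 fold change was 0.034 for TPM1 in siQKI, and 0.017 for TAGLN and 0.021 for CNN3 in siRBFOX2. With 1 library left out, it ran from -0.052 to 0.010 for TPM1 in siQKI (reversed without siCtrl replicate 1), from -0.12 to 0.17 for TAGLN in siRBFOX2 (without siCtrl replicate 1, 0.14, or siRBFOX2 replicate 3), from -0.0058 to 0.24 for CNN1 in siRBFOX2 (without siRBFOX2 replicate 1), from -0.021 to 0.0032 for CNN3 in siRBFOX2 (without siRBFOX2 replicate 2) and from -0.0041 to 0.044 for TPM2 between the knockdowns (without siRBFOX2 replicate 2). Where no construction shows it, the cause was not tested. Replicate numbers did not pair the libraries (correlations of -0.0325 to 0.0235 over 9 same-numbered pairs), and with the number as a replicate block 6, 3 and 3 genes were called in siQKI, in siRBFOX2 and between the knockdowns, the sixth in siQKI being MYL9 (adjusted p = 0.0234). A count test with edgeR was planned and not run, since the values could not be taken back to reads. Genes with few counts, ACTA2, CNN1 and TAGLN3, are limited by the spread of low values.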
